A study of Bos taurus with 12 samples.

Results

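The genes described here are 4 enzymes of ketone body metabolism, AACS, ACAT1, BDH1 and BDH2, in the papillae of the bovine rumen. Every probe set that names one of them, and no other gene, in the array's probe-to-gene table was taken, which gave 5 of the 24016 probe sets other than controls (13292 of which name 1 gene) and 4 of 9155 named genes. AACS has 2 probe sets, Bt.29947.1.S1_at and Bt.29947.2.S1_at, which are given separately throughout. ACAT1 is represented by Bt.10036.1.S1_at, BDH1 by Bt.9777.1.S1_at and BDH2 by Bt.1792.1.S1_at.

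Papillae of the ventral sac were taken from 4 Holstein cows, each of them at 3 times. Week 0 is the control, a high forage diet, and weeks 1 and 3 belong to a grain challenge, which gives 4 arrays a week and 12 in all. Diet and week coincide, and no cow that stayed on forage is among the samples. The deposited log2 values put the median of each probe set over the 12 arrays at 0, so a value says how far an array lies above or below that median and holds no absolute level. For this reason levels of different genes cannot be set against each other, and whether a probe set lies above background, or whether epithelial markers are present, cannot be read from the values. A papilla is a mixture of cells, and in such a bulk sample fewer cells of a type and less RNA per cell cannot be told apart. The hybridization controls, RNA of known amount added to each sample, stood apart on 3 arrays, with means of 0.48 to 0.72 for cow 1 at weeks 0 and 1 and for cow 2 at week 0, compared with -0.32 to 0.05 on the other 9 arrays.

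Rumen epithelium takes up the butyrate that microbes release by fermentation and turns part of it into ketone bodies, mainly beta-hydroxybutyrate, which pass into the blood. In the mitochondria butyrate is activated to its CoA ester and oxidised to acetoacetyl-CoA, from which acetoacetate is made by way of HMG-CoA. ACAT1, the mitochondrial acetoacetyl-CoA thiolase, interconverts acetoacetyl-CoA and acetyl-CoA. BDH1, a mitochondrial dehydrogenase, interconverts acetoacetate and beta-hydroxybutyrate. BDH2 is a cytosolic member of the short-chain dehydrogenase family. AACS, the cytosolic acetoacetyl-CoA synthetase, activates acetoacetate so that its carbon can enter fatty acid and sterol synthesis.

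Among the 5 probe sets, AACS Bt.29947.1.S1_at varied most between weeks, with a mean of -0.46 at week 3 against 0.55 at week 1 on the log2 scale. ACAT1 had a smaller difference in the same direction, and for BDH1, BDH2 and the other AACS probe set no difference between 2 weeks was beyond -0.15. No probe set of these genes passed the test in any comparison of weeks (limma, 3 comparisons of 2 weeks and an F test over the 3 weeks, adjusted over all 24016 probe sets, threshold 0.05). The background was the same, with 0% of all probe sets called in each comparison of weeks and in the F test. At an unadjusted p under 0.05 the share of all probe sets was 5.15% for week 1 against week 0, 3.88% for week 3 against week 0 and 4.88% for week 3 against week 1, or 1237, 933 and 1172 probe sets, and that of the F test was 5.01%. At that level 0 of the 5 ketone body enzyme probe sets stood out for week 1 against week 0, 1 of 5 for week 3 against week 0 and 2 of 5 (AACS Bt.29947.1.S1_at and ACAT1) for week 3 against week 1. With the cow as a block this last count was 1 of 5, AACS, against 7.58% of all probe sets.

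**Figure D1:**
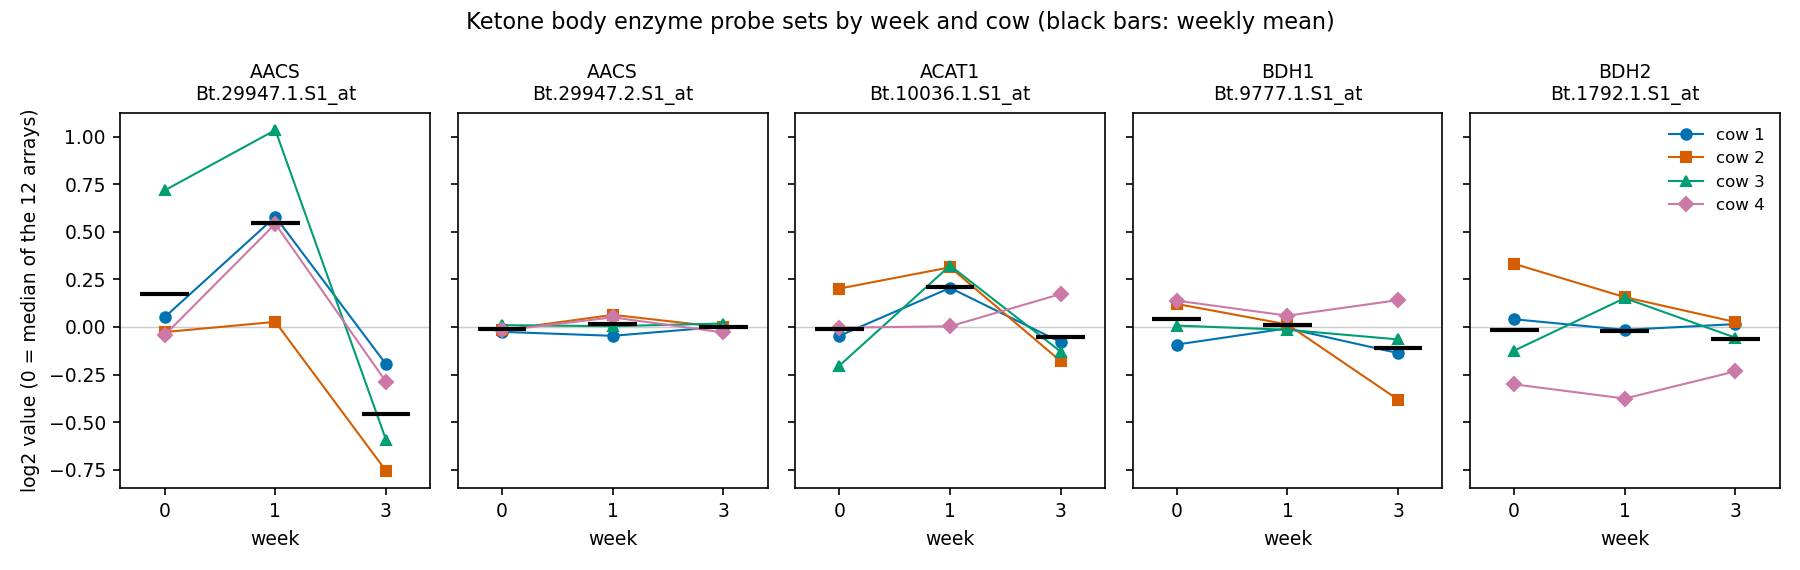
Log2 values (vertical axis, 0 is the median of the 12 arrays) of the 5 probe sets at weeks 0, 1 and 3 (horizontal axis), with a line for each of the 4 cows and a black bar for the weekly mean. AACS Bt.29947.1.S1_at lies between -0.76 and -0.20 at week 3, below all values of weeks 0 and 1, while Bt.29947.2.S1_at stays between -0.05 and 0.06 on all arrays.

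AACS was the member with the widest range, 1.79 on the log2 scale in Bt.29947.1.S1_at. At week 0 this probe set stood at 0.05, -0.03, 0.72 and -0.04 in cows 1 to 4. At week 1 it stood at 0.58, 0.03, 1.03 and 0.54 in the same cows. At week 3 it stood at -0.20, -0.76, -0.59 and -0.29. The 4 values of week 3 lie below all 8 values of the earlier weeks, whereas the values of weeks 0 and 1 overlap because cow 3 was already high on forage and cow 2 was low at week 1. The weekly means were 0.17 ± 0.36, 0.55 ± 0.41 and -0.46 ± 0.26 at weeks 0, 1 and 3 (SD, n = 4 cows).

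The difference of this AACS probe set between week 3 and week 1 was -1.004 ± 0.23 on the log2 scale (SE, n = 4 cows), a 2.00-fold lower value in week 3 with a 95% interval of -1.52 to -0.49. The differences of cows 1 to 4 were -0.77, -0.78, -1.63 and -0.83, lower in 4 of 4, and the adjusted p of the mean was 0.575 (limma with Benjamini-Hochberg adjustment, unadjusted p = 0.00138). An exact permutation test of the 4 against 4 arrays gave p = 0.0286, the smallest this design allows, without use of the pairing by cow and with no adjustment for the 15 such tests run. Of all probe sets 1.38% had week 3 wholly below week 1, and 4.59% were lower in all 4 cows. Of all probe sets 0.225% had a smaller p and 0.450% a larger difference in either direction.

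Between week 3 and week 0 the same AACS probe set differed by -0.63 ± 0.23 (SE, n = 4 cows), with a 95% interval of -1.15 to -0.12 (limma, adjusted p = 0.901, unadjusted p = 0.0207). It was lower in 4 of 4 cows, with -0.25 in cow 1, -0.73 in cow 2, -1.31 in cow 3 and -0.25 in cow 4. Cow 3 had the widest difference of the 4, and without it the mean difference was -0.41. The exact permutation p was again 0.0286, and 0.754% of all probe sets had week 3 wholly below week 0 and 4.63% were lower in all 4 cows. Between week 1 and week 0 the difference was 0.37 ± 0.23, with a 95% interval of -0.14 to 0.89 (limma, adjusted p = 0.763). It was higher in 4 of 4 cows, by 0.05 to 0.58, as in 6.91% of all probe sets, and the exact permutation p was 0.314. The week 3 and week 1 comparisons with week 0 share their 4 forage arrays.

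The other AACS probe set, Bt.29947.2.S1_at, did not follow this course. Its 12 values lay between -0.05 and 0.06, with a range of 0.11. The weekly means were -0.01 ± 0.02, 0.02 ± 0.05 and -0.003 ± 0.02 at weeks 0, 1 and 3 (SD, n = 4 cows), and the values of all 3 weeks overlap. Its SD over the 12 arrays, 0.03, exceeded that of 9.95% of all probe sets, against 96.8% for Bt.29947.1.S1_at with an SD of 0.54. The differences were 0.03 ± 0.03 for week 1 against week 0, 0.01 ± 0.03 for week 3 against week 0 and -0.02 ± 0.03 for week 3 against week 1 (SE, n = 4 cows; limma, adjusted p from 0.763 to 0.999). Its 95% interval for week 3 against week 1, -0.08 to 0.04, does not reach that of Bt.29947.1.S1_at. Over the 12 arrays the correlation of the AACS probe sets was 0.06 (Pearson, a description over arrays that come from 4 cows). The median of all probe sets other than controls lay between -0.05 and 0.05 on each array. At week 1 it was -0.05, 0.05, 0.003 and 0.03 in cows 1 to 4, where Bt.29947.2.S1_at stood at -0.05, 0.06, 0.004 and 0.05. The values of this probe set thus lay close to the array medians. After median centring of each array its difference for week 1 against week 0 was 0.005 ± 0.009 (SE). Which of the 2 AACS probe sets better represents AACS transcripts was not tested. The week 3 difference of AACS rests on 1 of its 2 probe sets.

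ACAT1 varied less. At week 0 it stood at -0.05, 0.20, -0.20 and -0.004 in cows 1 to 4. At week 1 it stood at 0.21, 0.31, 0.32 and 0.004, and at week 3 at -0.08, -0.18, -0.13 and 0.17. Cows 1, 2 and 3 had their highest value at week 1 and cow 4 at week 3, and every pair of weeks overlaps. Week 1 was above week 0 in 4 of 4 cows, by 0.007 to 0.53, with a mean difference of 0.22 ± 0.11 (SE, n = 4 cows; limma, adjusted p = 0.763, exact permutation p = 0.0571), and without cow 3 it was 0.12. Week 3 was below week 1 in 3 of 4 cows, with a difference of -0.27 ± 0.11 and a 95% interval of -0.50 to -0.03 (limma, adjusted p = 0.952, unadjusted p = 0.0298; exact permutation p = 0.0571). With the cow as a block the 95% interval was -0.54 to 0.008 and includes 0 (limma, unadjusted p = 0.0552). The difference between week 3 and week 1 was -0.41 without cow 4, the 1 cow that was higher at week 3. Between week 3 and week 0 the difference was -0.04 ± 0.11, with 2 cows higher and 2 lower and a 95% interval of -0.28 to 0.19.

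BDH1 stood at -0.09, 0.12, 0.007 and 0.14 in cows 1 to 4 at week 0. It stood at -0.007, 0.01, -0.01 and 0.06 at week 1, and at -0.14, -0.38, -0.07 and 0.14 at week 3. The lowest of the 12 values was that of cow 2 at week 3, and the highest was that of cow 4 at the same week. Week 3 differed from week 0 by -0.15 ± 0.09 (SE, n = 4 cows; lower in 3 of 4 cows; limma, adjusted p = 0.901), with a 95% interval of -0.36 to 0.06, and without cow 2 the difference was -0.04. Week 3 differed from week 1 by -0.12 ± 0.09 (lower in 3 of 4 cows), with a 95% interval of -0.33 to 0.09. Without cow 2 this difference was -0.03, and without cow 4 it was -0.19. For week 1 against week 0 the difference was -0.03 ± 0.09, with a 95% interval of -0.24 to 0.18. No difference between weeks was detectable for BDH1 at this number of arrays.

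BDH2 differed between cows more than between weeks. It stood at 0.04, 0.33, -0.12 and -0.30 in cows 1 to 4 at week 0. It stood at -0.02, 0.16, 0.15 and -0.38 at week 1, and at 0.02, 0.03, -0.06 and -0.23 at week 3. The 3 values of cow 4 were the lowest 3 of the 12. Of the variance of BDH2 77.9% lay between cows and 1.22% between weeks, against 19.7% between cows and 64.9% between weeks for AACS Bt.29947.1.S1_at. The shares were 5.64% and 42.2% for ACAT1, 32.5% and 23.1% for BDH1, and 23.7% and 17.3% for AACS Bt.29947.2.S1_at, in that order of cows and weeks. Any grouping takes up some share of the variance, which was not subtracted. The difference of BDH2 was -0.007 ± 0.15 for week 1 against week 0 (SE, n = 4 cows, 95% interval -0.34 to 0.32). It was -0.05 ± 0.15 for week 3 against week 0 (-0.38 to 0.28) and -0.04 ± 0.15 for week 3 against week 1 (-0.37 to 0.29). These SEs and intervals are those of the model without the cow. With the cow as a block the SE of BDH2 was 0.08. Its 95% intervals were then -0.20 to 0.19, -0.24 to 0.14 and -0.23 to 0.15, in the same order.

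**Figure D2:**
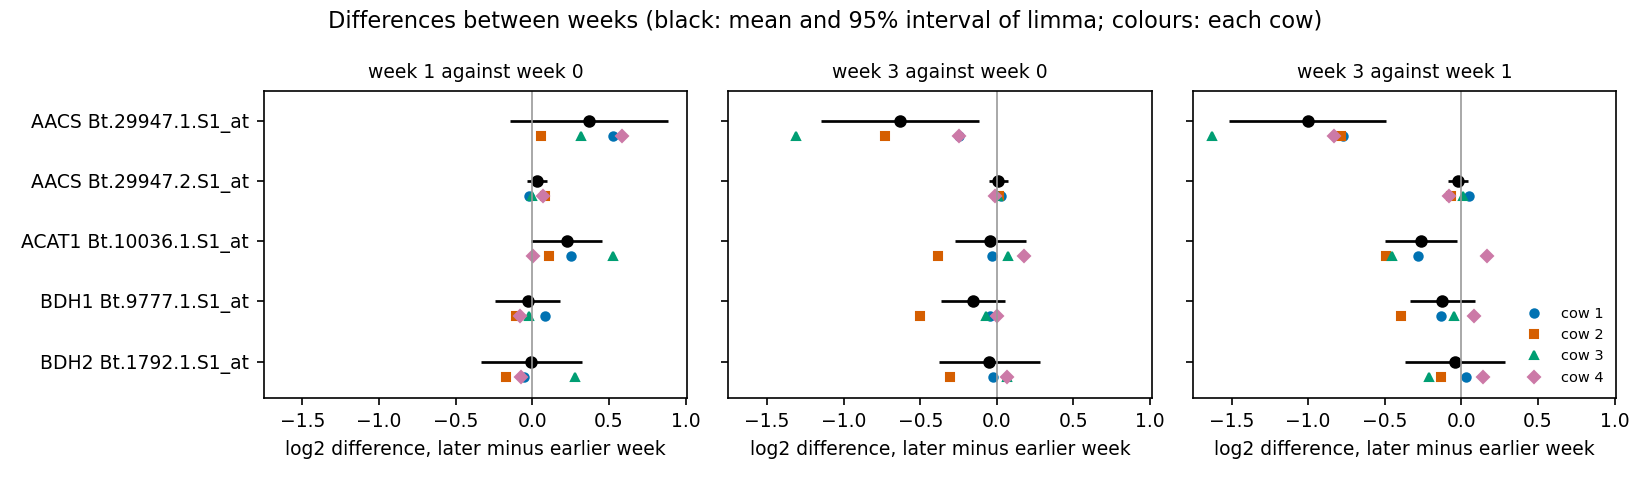
Log2 differences, later minus earlier week (horizontal axis), of the 5 probe sets (vertical axis) in the 3 comparisons, with black points and bars for the mean and the 95% interval of the limma model and coloured symbols for the 4 cows. The interval of AACS Bt.29947.1.S1_at is -1.52 to -0.49 for week 3 against week 1, and those of BDH2 span 0 in all 3 comparisons.

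In the F test over the 3 weeks AACS Bt.29947.1.S1_at had an unadjusted p of 0.00442 (limma, adjusted p = 0.676), and 0.650% of all probe sets had a smaller one. ACAT1 followed with an unadjusted p of 0.0624, then BDH1 with 0.269, AACS Bt.29947.2.S1_at with 0.574 and BDH2 with 0.939 (adjusted p from 0.939 to 0.972). The order of the weekly means was week 1, week 0, week 3 in AACS Bt.29947.1.S1_at and in ACAT1, and week 0, week 1, week 3 in BDH1 and BDH2. None of these neighbours in the order differed at the threshold.

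The genes whose values over the 12 arrays were most like those of AACS Bt.29947.1.S1_at, among 8464 probe sets of other single genes left without the 40% of lowest SD, were SCD, NSDHL and HMGCS1. SCD, the stearoyl-CoA desaturase, had a correlation of 0.98 with it, NSDHL, a sterol dehydrogenase of cholesterol synthesis, one of 0.96 and HMGCS1, the cytosolic HMG-CoA synthase, one of 0.95 (probe set Bt.22763.2.S1_a_at). With the mean of each cow subtracted these were 0.98, 0.99 and 0.98. They describe 12 arrays of 4 cows, and the 3 genes were picked as the highest of many.

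Between week 3 and week 1 SCD was at -1.36 ± 0.33, NSDHL at -0.68 ± 0.15 and this HMGCS1 probe set at -1.21 ± 0.26 on the log2 scale (SE, n = 4 cows). None passed the test (limma, adjusted p from 0.548 to 0.575). Since the 3 genes were chosen for their likeness to AACS on these arrays, these values describe the choice and are no separate evidence. The nearest genes of AACS Bt.29947.2.S1_at, whose values lay close to the array medians, were CRP, FGFR2 and CA8 (correlations 0.98, 0.98 and 0.97). Those of ACAT1 were CLCN2, NSRP1 and TEFM (0.90, 0.89 and 0.88), those of BDH1 were KLHL25, ITGB4 and LAPTM4A (0.85, 0.82 and 0.81), and those of BDH2 were PYCARD, PLA2G16 and BPHL (0.95, 0.94 and 0.92). The nearest genes thus differed from one member to the next.

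**Figure D3:**
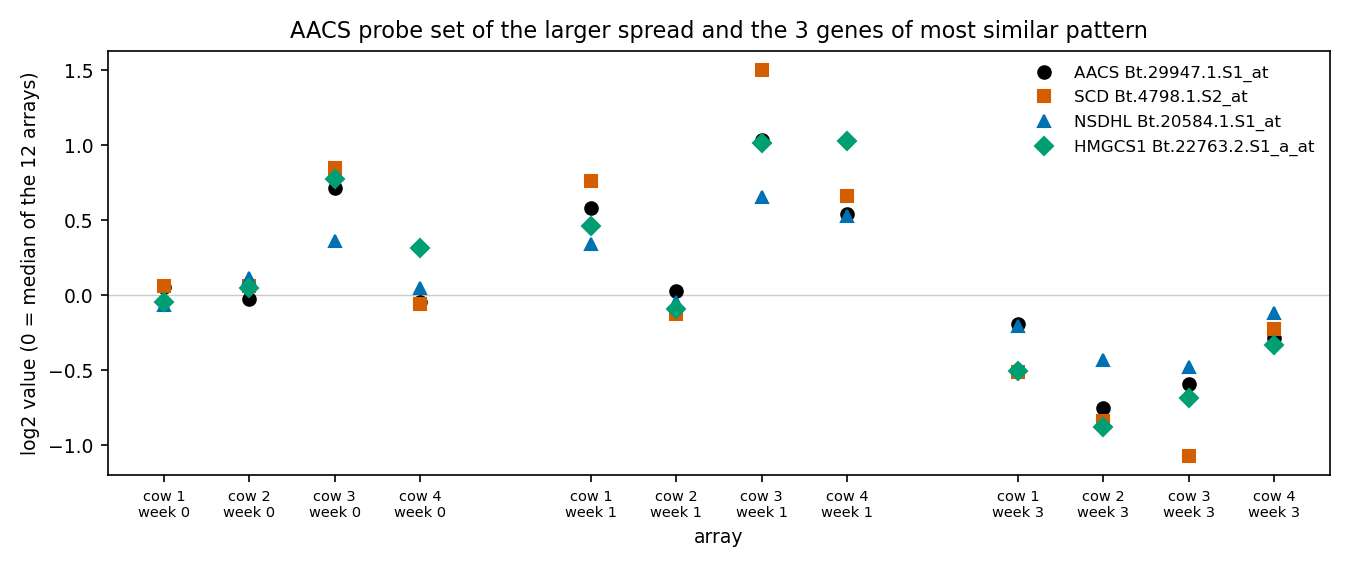
Log2 values (vertical axis, 0 is the median of the 12 arrays) of AACS Bt.29947.1.S1_at and of SCD, NSDHL and HMGCS1 on each of the 12 arrays (horizontal axis, by week and cow). All 4 genes lie below 0 on all 4 arrays of week 3, and cow 3 is their highest array at week 0.

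Of the other enzymes of ketone body metabolism, HMGCS1 and ACAT2 were analysed here. HMGCS1 and ACAT2, the cytosolic thiolase, belong to the cytosolic route that leads to sterols. HMGCS1, here by its probe set of the largest SD, Bt.22763.1.S1_at, stood at -0.68, -0.18, 1.46 and 0.62 in cows 1 to 4 at week 0, at 2.43, 0.18, 3.74 and 3.17 at week 1, and at -1.15, -1.32, -0.83 and -1.19 at week 3. In this probe set every cow was lowest at week 3 and highest at week 1. Week 3 differed from week 1 by -3.50 ± 0.70 (SE, n = 4 cows; limma, adjusted p = 0.548). Its other probe set, Bt.22763.2.S1_a_at, differed by -1.21 between week 3 and week 1 and by 0.33 between week 1 and week 0, against 2.07 in the first, and in cow 2 it was lower at week 1 than at week 0. ACAT2 differed by -0.66 ± 0.19 between week 3 and week 1, lower in 4 of 4 cows (limma, adjusted p = 0.715), and by 0.44 ± 0.19 between week 1 and week 0, higher in 3 of 4 cows.

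The transporters of ketone bodies and other monocarboxylates were represented by 3 of 9 genes, none of which passed the test. At week 1 against week 0 and at week 3 against week 0 all 3 were higher, and at week 3 against week 1, 1 was higher and 2 lower. Of all named genes 63.3%, 64.5% and 40.8% were higher in these 3 comparisons, in that order. SLC16A1, the transporter MCT1, was at 0.14 ± 0.11 for week 1 against week 0 and at -0.11 ± 0.11 for week 3 against week 1 (SE, n = 4 cows). BSG, the chaperone of such transporters, was at 0.12 ± 0.07 and -0.04 ± 0.07 in these comparisons. SLC16A3, which exports lactate, was at 0.02 ± 0.06 and 0.02 ± 0.06, and its other 2 probe sets had the opposite sign in the later comparison.

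Of the genes listed for butyrate activation and oxidation to acetoacetyl-CoA, 13 of 19 were measured. The list also holds enzymes that act on other acyl groups, such as ACSS1, so its counts are not specific to butyrate. At week 1 against week 0, 8 were higher and 5 lower, with a median of 0.02, against 63.3% higher and a median of 0.02 over all 9155 named genes. At week 3 against week 0, 3 were higher and 10 lower, with a median of -0.08, against 64.5% higher and a median of 0.02 over all named genes. At week 3 against week 1, 3 were higher and 10 lower again, with a median of -0.05, against 40.8% higher and a median of -0.008. None of the 13 passed the test in any comparison. ACADS, the short-chain acyl-CoA dehydrogenase, was at -0.20 ± 0.12 for week 3 against week 0 and HADHA, a subunit of the trifunctional protein, at -0.20 ± 0.11 (SE, n = 4 cows). HADH, the short-chain hydroxyacyl-CoA dehydrogenase, was at -0.09 ± 0.07 and ACSS1, a mitochondrial acetyl-CoA synthetase, at -0.0008 ± 0.04 in that comparison. ACSS1 was at 0.08 ± 0.04 for week 1 against week 0, higher in 4 of 4 cows, and at -0.08 ± 0.04 for week 3 against week 1.

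Of the regulators and receptors, 8 of 14 were measured, and none passed the test. At week 1 against week 0, 5 were higher and 3 lower, with a median of 0.06. At week 3 against week 0, 4 were higher and 4 lower, and at week 3 against week 1, 2 were higher and 6 lower, with medians of -0.01 and -0.05. The shares of all named genes that were higher were 63.3%, 64.5% and 40.8% in the 3 comparisons, in the same order. PPARG, a nuclear receptor of lipid metabolism, was at 0.31 ± 0.11 for week 1 against week 0, higher in 4 of 4 cows, and at -0.35 ± 0.11 for week 3 against week 1, lower in 3 of 4 (SE, n = 4 cows; limma, adjusted p of 0.763 and 0.770). MLYCD, which breaks down malonyl-CoA, was at -0.35 ± 0.13 for week 3 against week 0, lower in 4 of 4 cows. CPT2, of the carnitine shuttle, was at -0.25 ± 0.12 in that comparison, also lower in 4 of 4. For week 1 against week 0 CPT2 was at -0.32 ± 0.12, higher in 1 of 4 cows (limma, adjusted p = 0.763, unadjusted p = 0.0253). PPARGC1A, a coactivator of mitochondrial genes, was at 0.05 ± 0.07 for week 3 against week 0 (limma, adjusted p = 0.901).

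**Figure D4:**
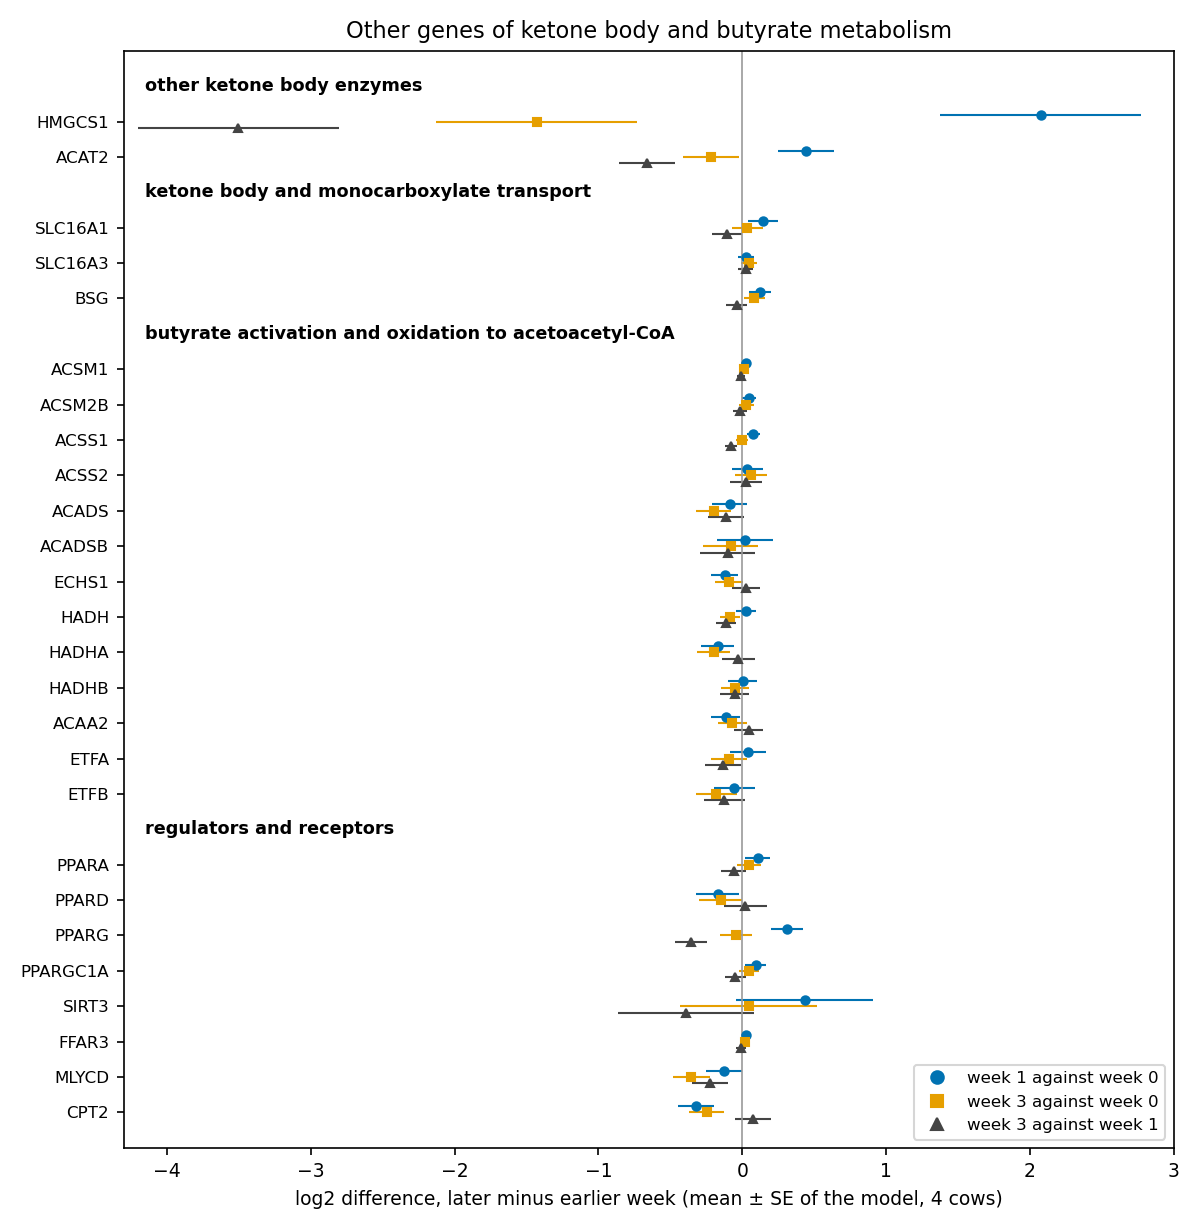
Log2 differences, later minus earlier week (horizontal axis, mean ± SE of the limma model, 4 cows), of the 26 measured genes of the 4 pathway lists (vertical axis) in the 3 comparisons. HMGCS1 has the widest differences, 2.07 for week 1 against week 0 and -3.50 for week 3 against week 1. The 13 measured genes of the butyrate list lie between -0.20 and 0.08.

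No cell type marker passed the test in any comparison of weeks. The mean of the fibroblast and matrix markers, 9 of 9 measured, lay between 0.05 and 0.34 on the arrays of week 3. It lay between -0.39 and 0.21 at week 1 and between -0.40 and 0.11 at week 0. By the probe set of the largest SD 9 of 9 exceeded their week 1 mean (median difference 0.30), against 40.8% of all named genes. In that comparison 1 other probe set of COL1A1 and 2 others of PDGFRA had the opposite sign. The same held for 1 other probe set each of PTPRC, KRT5 and KRT4 among the markers below. The mean of the leukocyte markers, 9 of 10 measured, lay between -0.22 and 0.71 at week 3, against -0.51 to 0.16 at week 1 and -0.74 to 0.45 at week 0, with 6 of 9 higher at week 3 than at week 1. The mean of the markers of suprabasal and cornified epithelium, 4 of 11 measured, lay between -0.62 and -0.17 at week 3, against -0.16 to 0.61 at week 1 and -0.04 to 0.76 at week 0. Of these 4 markers 2 were higher and 2 lower at week 3 against week 1, with a median of -0.08, and DSG1 had the widest difference at -1.72, against -0.19 for KRT10, 0.02 for KRT4 and 0.03 for DSC1. That of the basal markers, 6 of 8 measured, lay between -0.31 and 0.05 at week 3, against -0.34 to 0.28 at week 1 and 0.09 to 0.41 at week 0, with 2 of 6 higher at week 3 than at week 1. That of the markers of vessels and smooth muscle, 8 of 8 measured, lay between -0.10 and 0.12 at week 3, against -0.07 to 0.11 at week 1 and 0.01 to 0.27 at week 0, with 2 of 8 higher at week 3 than at week 1. No marker has an absolute level on this scale, so none can be said to be at 0, and the part of these values in the AACS results was not tested.

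Without the 3 arrays of high hybridization controls AACS Bt.29947.1.S1_at differed by -0.99 between week 3 and week 1, by -0.80 between week 3 and week 0 and by 0.20 between week 1 and week 0. For 6 control transcripts with probe sets at both ends, the 3' minus the 5' value averaged between -0.04 and 0.13 at week 3, against -0.12 to 0.03 at week 1 and -0.12 to 0.09 at week 0, and its part in the results was not tested.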

How the data were processed

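Biotin-labelled cRNA from 10 µg of total RNA per sample was hybridised to Affymetrix arrays, per the labels' protocols. The deposited log2 values were made by the authors with GCRMA, per the submitters' processing notes, with no version stated there. No source names the log base. Base 2 was assumed, since a probe set spans up to 11.2 units, which in natural log units would be 74399-fold and beyond a 16-bit scanner (65535 levels). Each probe set had a median of 0 across the 12 arrays, a step that no source used here describes.

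The 24016 probe sets left without the 112 AFFX controls were fitted together (limma 3.58.1, lmFit and eBayes, R 4.3.3, two-sided), with 1 mean for each week. Benjamini-Hochberg adjustment covered all of them. The exact permutation tests (scipy 1.17.1) were two-sided. A paired sign-flip test of 4 cows cannot give a p under 0.125. The replicates are separate cows sampled at every week. The deviations from the weekly means correlated at 0.32 to 0.69 for arrays of the same cow, and at -0.44 to 0.06 for arrays of different cows. The labels name the same cows at every week, so the model was also fitted with a term for each cow. The other alternatives were quantile normalization, median centring of arrays, array weights, a robust prior variance, a filter on low SD, the 8 arrays of the pair alone, leaving out the 3 arrays of high hybridization controls, and leaving out each cow or array. Symbols were updated by gene ID from a table of the ARS-UCD2.0 assembly, with 13263 of 13292 IDs found, and no coordinates are given because the values carry no genome build. Genes other than the 4 enzymes are represented by their probe set of the largest SD (the search for like genes ran over single probe sets), and named when they had one of the 4 smallest F test p-values of their list, were among the 3 most alike, or were HMGCS1, ACAT2 or SLC16A1. The fit was tested on simulated data. The number of arrays limits the precision. The enzymes, lists, tests and alternatives were chosen with earlier results of these data known.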

Additional observations from a re-analysis of the deposited data

Results flagged for a closer look

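One value of the 5 probe sets stood far from the other cows of its week. AACS Bt.29947.1.S1_at was at 0.72 in cow 3 at week 0, against -0.04 to 0.05 in the other 3 cows, a gap that is most of the week's whole range and passes Dixon's criterion for 4 values. Of the 15 groups of 4 cows tested 1 was marked in this way, and chance marks about 1 in 20. Without this array week 3 differed from week 0 by -0.45 and week 1 from week 0 by 0.55.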

How the results depend on the processing

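The direction of AACS Bt.29947.1.S1_at was kept in all 3 comparisons and that of ACAT1 in both comparisons with week 1 under all 24 alternatives each, and none brought them past the threshold. Over them the AACS difference ranged from -1.18 to -0.80 for week 3 against week 1 (adjusted p from 0.0929 to 1.00), from -0.80 to -0.41 for week 3 against week 0 and from 0.20 to 0.55 for week 1 against week 0. With the cow as a block (replicate block) its adjusted p was 0.203 for week 3 against week 1, and no member was called, while over the whole array 2 probe sets were called for week 1 against week 0 and 1 in the F test. Array weights gave week 1 of cow 1 a weight of 0.062. With them 1 member probe set was called for week 1 against week 0 (AACS Bt.29947.2.S1_at, 0.06, adjusted p = 0.0185) and 1 in the F test. After median centring of each array this difference was 0.005 (limma, adjusted p = 0.968). With array weights there were 9970 calls over the whole array for week 1 against week 0 and 7 for week 3 against week 0. There were 97 for week 3 against week 1 and 6112 in the F test. Without the 3 arrays of high hybridization controls these 4 counts were 5, 6, 12 and 8. The filter on low SD, which leaves out AACS Bt.29947.2.S1_at, gave 2 for week 1 against week 0, and quantile normalization gave 2 for week 3 against week 0. Leaving out 1 cow or 1 array gave 0 to 45, 0 to 2, 0 to 38 and 0 to 28 calls, in the order of the 4 counts above, with the highest of each reached without week 1 of cow 1, except for week 3 against week 0, where it was without week 3 of cow 1.

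Small differences changed sign in some comparisons. BDH1 kept its sign under all 24 alternatives for week 3 against week 0 and for week 3 against week 1. AACS Bt.29947.2.S1_at kept its sign under all 23 that include it for week 3 against week 1. For week 1 against week 0, AACS Bt.29947.2.S1_at was at -0.0022 and BDH2 at 0.0301 after quantile normalization, BDH1 at 0.0311 with array weights, and BDH2 at 0.19 without the 3 arrays of high hybridization controls. For week 3 against week 0, AACS Bt.29947.2.S1_at was at -0.014 after quantile normalization and -0.0062 after median centring, and without the 3 arrays ACAT1 was at 0.0492 and BDH2 at 0.15. For week 3 against week 1, BDH2 was at 0.15 with array weights. Leaving out 1 cow or 1 array, BDH1 ranged from -0.0761 to 0.00071 and BDH2 from -0.10 to 0.11 for week 1 against week 0, ACAT1 from -0.12 to 0.0721 and BDH2 from -0.14 to 0.0662 for week 3 against week 0, and BDH2 from -0.16 to 0.0175 for week 3 against week 1. The cause of these changes was not tested.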
